A study of Mus musculus with 8 samples.

Results

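The primary cilium assembly and transport genes described here are 55 genes of the 24421 in the deposited mouse count data. They were chosen by symbol, with earlier results of these data known. They comprise 6 genes of the intraflagellar transport complex A (IFT-A), 13 of complex B (IFT-B), 7 of the motors that carry these complexes, 10 of the BBSome and its helpers, 13 of the transition zone and 6 of the basal body, inversin compartment and cargo transport. The study asked how the collecting duct responds to ischemia-reperfusion injury (IRI) of the kidney. RNA on ribosomes was pulled down from kidneys of male mice aged 10 to 16 weeks in which HoxB7-Cre had switched on Gt(ROSA)26Sor-mCherry-Rpl10a (RiboTRAP), a ribosomal protein with an mCherry tag. In 4 mice the renal pedicles were clamped for 30 min and the kidneys were taken 9 h later, and 4 sham mice had surgery without clamping. Both groups carried the Cre and the tag, each library came from 1 mouse, and the Cre marks all derivatives of the mesonephric duct, so epithelium of the ureter is included as well as the collecting duct.

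The primary cilium is a single antenna of microtubules on the apical surface of most tubule cells, principal cells of the collecting duct among them. It grows from a basal body, is sealed off by the transition zone, and is built and maintained by trains of IFT-B and IFT-A that kinesin-2 carries to the tip and dynein-2 carries back, while the BBSome moves membrane receptors along the same tracks. Loss of many of these genes leads to cystic kidneys, nephronophthisis and other ciliopathies, and the cilium bears the polycystins and parts of the Hedgehog pathway.

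Gene totals ran from 13518005 to 27496808 counts after IRI and from 25210299 to 29285812 counts in sham, and the lines without a gene made up 43.3% to 52.3% of each IRI library and 33.3% to 37.7% of each sham library. Every member had counts in all 8 libraries, from 13 for Bbs10 in IRI replicate 2 to 4871 for Dync2h1 in sham replicate 1. Values below are CPM, read counts as a share of the library scaled by TMM, a factor that evens out composition between libraries, with mean ± SD over n = 4 mice. SE is the standard error of a log2 fold change, and fold changes compare IRI with sham. A gene was called at an adjusted p under 0.01 in edgeR's quasi-likelihood test over all 14606 genes with enough counts, which included all 55 members. The collecting duct identity of the libraries was checked on marker genes. In sham, the 12 principal cell markers summed to 12600 to 16433 CPM and the 11 intercalated cell markers to 3246 to 4055 CPM. Proximal tubule markers, from an epithelium outside the HoxB7 lineage, summed to 5435 to 8575 CPM in sham and 8447 to 16589 CPM after IRI, with 9 of 12 higher. Neutrophil markers rose from 3.36 to 6.08 CPM in sham to 55.2 to 149.6 CPM, with 7 of 7 higher, and 6 of 9 endothelial, 4 of 9 macrophage and 2 of 8 fibroblast and pericyte markers were higher. The fibroblast and pericyte count was 4 without IRI replicate 1, and 0 without IRI replicate 2 or 3, without sham replicate 1, 2 or 3, or with scaling by total counts or upper quartile. Urothelial markers, of the lining of the renal pelvis and ureter, had 2 of 7 lower, or 1 without IRI replicate 2 or 3 or any one sham mouse. Their count was 3 without IRI replicate 1 or 4 or with upper quartile scaling. It was 4 with DESeq2, limma-voom or scaling by total counts. Markers of the thick limb and distal convoluted tubule had 2 of 8 higher and 1 lower. Beside these marker counts, 24.6% of all tested genes were called lower and 25.1% higher. No list of another cell type had a marker at 0 in all libraries.

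After IRI, most of the 55 genes were lower. Of the 55 members, 41 were called lower, which is 74.5%, against 24.6% of all tested genes, and 2 were called higher, Ift43 and Tulp3, against 25.1% of all tested genes. The median log2 fold change of the members was -0.66, or 1.58-fold lower, beside -0.01 over all tested genes. All 4 IRI mice lay below all 4 sham mice for 42 members, against 29.8% of all tested genes, and 15 members were called at least 2-fold lower, against 10.5%. Of the 41 genes called lower, 28 were called lower in each of the other fits at the same threshold. Scaling by total counts moved the median of all genes to -0.20 and the calls over all genes from 3595 lower and 3667 higher to 4912 lower (33.6%) and 2784 higher, and the members to 44 lower and 0 higher. In IFT-B, the motors, the BBSome group and the transition zone 0 genes were called higher by edgeR, DESeq2 or limma-voom, and 0 were higher at an unadjusted edgeR p under 0.05. The summed level of the 55 genes was 938 to 999 CPM after IRI and 1482 to 1659 CPM in sham, so the groups did not overlap. In ribosome-bound RNA pulled down from whole kidneys, fewer cells of a type and less ribosome-bound RNA per cell cannot be told apart. The 12 principal cell markers were all called lower as well, summing to 2203 to 4092 CPM after IRI, as were all 11 intercalated cell markers at 1089 to 1768 CPM, while Cdh1, Krt7, Krt8, Krt18 and Krt19 of the collecting duct epithelium list were called higher and its Gata3, Hoxb7, Tfap2b and Mecom lower. The call for Krt7 was lost without IRI replicate 1 or sham replicate 1, 3 or 4, and with scaling by total counts or upper quartile (edgeR adjusted p from 0.0106 to 0.0163). The part of these shifts in the values of the cilium genes was not tested.

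**Figure D1:**
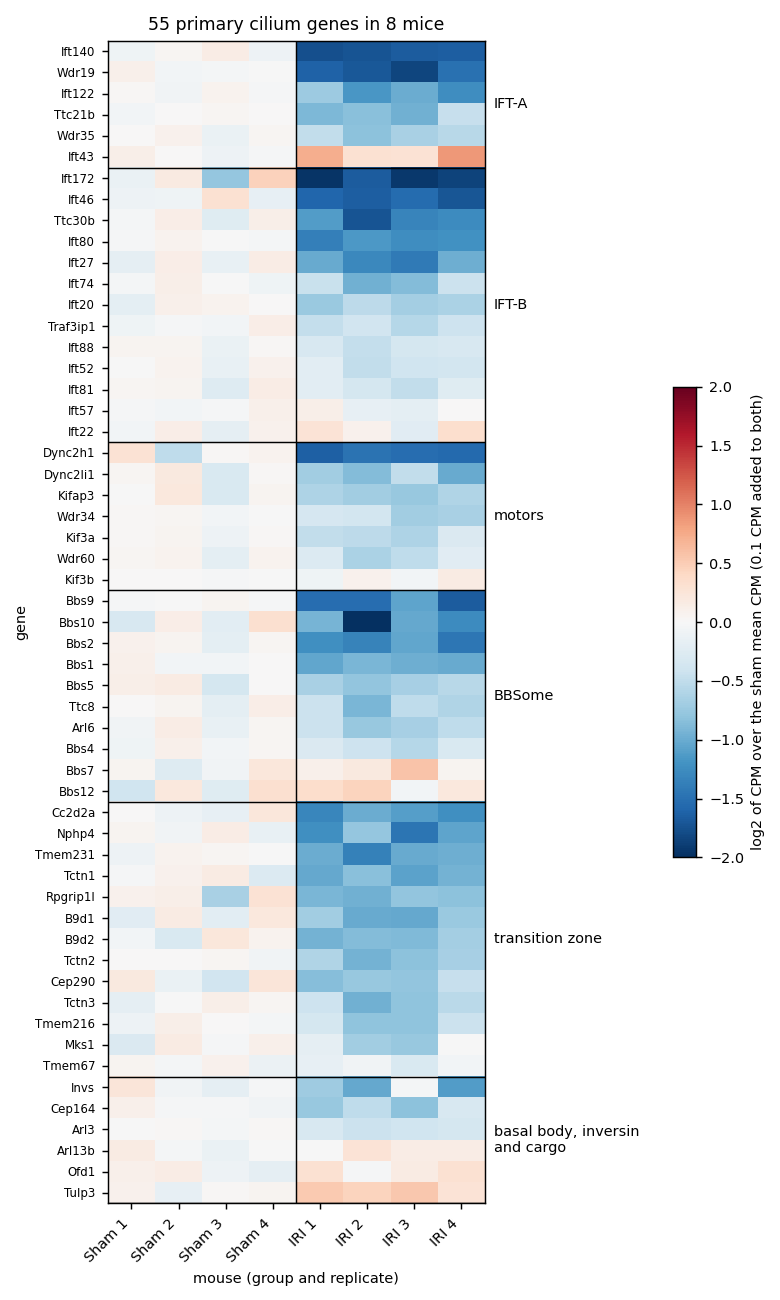
Rows are the 55 genes in their 6 groups and columns the 8 mice, and colour gives log2 of CPM over the sham mean, with 0.1 CPM added to both and colours limited to ±2. The 4 IRI columns are blue for most genes, red for Ift43 and Tulp3 in all 4 mice, and near white for genes such as Kif3b and Ift57.

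The decline was seen in each mouse. The median deviation of the 55 genes from the sham mean, on the log2 scale, was -0.62, -0.81, -0.76 and -0.56 in IRI replicates 1 to 4 and lay between -0.06 and 0.05 in sham. The animal numbers form 2 series, of which the low one holds 3 IRI mice and 1 sham mouse and the high one the other 4 mice. The median log2 ratio of IRI to sham over the members was -0.69 within the low series and -0.60 within the high series. With the series as a covariate, 33 members were called lower by edgeR and 0 higher, while 20.8% of all tested genes were lower. Ift43 and Tulp3 then had edgeR adjusted p = 0.0107 and 0.0103, and Ift52, Ift74, Ift88, Bbs4, Bbs5, Bbs10, Tctn3 and Tmem216 were no longer called lower.

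The promoters of these genes were read for GTTGCC, one arm of the X-box, the palindromic motif that RFX transcription factors bind at ciliary genes. The RefSeq table (GRCm38.p6, from 250 bases before to 50 bases after each start) held 49 of the 55 genes, and Ift122, Ift80, Ift81, Ttc30b, Dync2li1 and Tmem67 were not matched. The arm, searched on both strands so that GGCAAC counts as well, was found for 22 of the 49 genes, or 44.9%, beside 14.8% of the tested genes and 14.1% of all genes in the table. The share was 66.7% for the transition zone (8 of 12), and the letters were held by 5 of 10 IFT-B genes, 2 of 5 IFT-A genes, 2 of 6 motor genes and 3 of 10 genes of the BBSome group. Median GC content was 59.8% for the members and 60.3% for the promoters of tested genes. The whole X-box was searched only as a fixed pattern, with the bases A and T between its arms. This pattern was found for 2 members, Tctn2 and Tmem216, or 4.08%, beside 1.08% of tested genes. Arms with other bases or another spacing between them were not counted. The share of members with a whole X-box of any form was therefore not tested. A match is a description of these letters and not a binding site.

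Ift140, the IFT-A gene with the largest decline, is shown with its whole window at chr17:25015836-25016135 on the plus strand, and capitals mark the X-box arm, which starts 109 bases before the start of the gene.
Ift140: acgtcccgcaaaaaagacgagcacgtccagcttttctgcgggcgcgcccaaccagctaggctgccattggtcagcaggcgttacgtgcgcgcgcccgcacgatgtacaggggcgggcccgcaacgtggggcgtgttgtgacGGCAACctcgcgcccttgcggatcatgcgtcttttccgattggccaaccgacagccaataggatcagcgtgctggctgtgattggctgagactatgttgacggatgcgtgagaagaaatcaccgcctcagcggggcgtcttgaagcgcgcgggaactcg
Of the 12 members that were at least 2-fold lower and had a promoter to read, 6 hold the X-box arm. Wdr19, Ift46, Bbs2, Bbs9, Bbs10 and Cc2d2a lack it. Besides Ift140, the 5 other members that were at least 2-fold lower and hold the X-box arm are shown in 30-base windows. This sets the same letters side by side, with the X-box arm in capitals.
Ift172, chr5:31291097-31291126, minus strand: tgtcgcactcacGTTGCCtgtgcgtcagcg
Ift27, chr15:78174073-78174102, minus strand: gggttgatgatgGTTGCCaggagcctgttt
Dync2h1, chr9:7177009-7177038, minus strand: catagcgacggagcttGGCAACtgctgagt
Nphp4, chr4:152478131-152478160, plus strand: tggtgcatcccgGTTGCCagctgatgttgg
Tmem231, chr8:111933900-111933929, minus strand: ccagcccatacaGTTGCCttcttgaagaga
The next 4 windows are those of members with the X-box arm that were not called after IRI.
Ift57, chr16:49699195-49699224, plus strand: gaggcgggtctgGTTGCCgtggtgaccggc
Bbs7, chr3:36613493-36613522, minus strand: gaatgcgccccgGTTGCCttggaaaccggc
Mks1, chr11:87853179-87853208, plus strand: gccagcgtctccGTTGCCaggggaacgagg
Arl13b, chr16:62847204-62847233, minus strand: acagacgctccaGTTGCCtagttaccagag
The X-box arm was thus found at genes that fell and at genes that did not: it was in the window of 48.6% of the members called lower (18 of 37 with a promoter) and of 33.3% of the others (4 of 12). Tmem231, Tctn1 and Ift57 hold 2 copies each, and those of Tctn1 face each other as GTTGCCcgGGCAAC, a form outside the whole pattern searched.

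The IFT-A complex carries cargo back from the ciliary tip and admits membrane proteins to the cilium. Of its 6 genes 5 were called lower and 1 higher, with a median log2 fold change of -0.90. The 3 genes of the core fell by a median of 1.66 on the log2 scale, and Ift43 of the periphery was the exception in direction. Ift140 (chr17:25016085-25099495, GRCm38, with no exon shared with another gene), a core subunit, stood at 12.7, 13.1, 13.6 and 13.7 CPM in IRI replicates 1 to 4 and 40.8, 44.4, 47.9 and 40.2 CPM in sham replicates 1 to 4. It was 3.26-fold lower (log2 fold change -1.70, SE 0.09, edgeR adjusted p = 1.09e-06), and the IRI mice were close to each other and far below every sham mouse. Wdr19, the core subunit also called IFT144 (chr5:65199696-65260415), read 8.31, 7.87, 7.10 and 9.01 CPM in IRI mice and 27.5, 24.5, 24.99 and 25.3 CPM in sham mice, 3.16-fold lower (log2 fold change -1.66, SE 0.10, edgeR adjusted p = 2.21e-06). Ift122, the remaining core subunit, was at 32.9, 24.2, 27.3 and 23.0 CPM in IRI mice against 55.3, 52.0, 57.0 and 53.9 CPM in sham mice (log2 fold change -1.02, SE 0.11, edgeR adjusted p = 5.76e-05). The highest IRI value of Ift122, in replicate 1, was still well below the lowest sham value.

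The peripheral IFT-A genes moved less. Wdr35, also called IFT121, gave 27.8, 22.3, 24.9 and 26.6 CPM in IRI mice and 39.3, 41.6, 35.8 and 40.4 CPM in sham mice, with no overlap (log2 fold change -0.63, SE 0.09, edgeR adjusted p = 0.000292). Ttc21b, or IFT139, was 1.71-fold lower (16.5 ± 2.77 CPM against 28.3 ± 0.865 CPM). Ift43 (chr12:86082541-86162459), a small subunit that binds Wdr35, was higher in all 4 IRI mice, with 18.9, 14.2, 13.95 and 20.9 CPM against 12.3, 11.5, 10.7 and 11.2 CPM in sham, or 1.49-fold (log2 fold change 0.58, SE 0.14, edgeR adjusted p = 0.00687). Replicates 1 and 4 were the high ones and replicates 2 and 3 lay nearer to sham. Its call did not hold without IRI replicate 1 (log2 fold change 0.52, adjusted p = 0.0205), without IRI replicate 4 (0.47, adjusted p = 0.016) or without any single sham mouse (adjusted p from 0.0136 to 0.022), nor with scaling by total counts (0.39, adjusted p = 0.0372), all by edgeR.

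IFT-B, the complex that carries tubulin and other cargo to the tip, had 10 of 13 genes called lower (median log2 fold change -0.65). The largest decline of all 55 genes was that of Ift172 (chr5:31253277-31291116), the largest subunit of the complex, which stood at 29.2, 35.9, 29.8 and 31.4 CPM in IRI mice and 103, 129, 66.2 and 156 CPM in sham mice. The sham mice varied, with replicate 3 lowest and replicate 4 highest, yet the highest IRI mouse lay below the lowest sham mouse. The gene was 3.60-fold lower (log2 fold change -1.85, SE 0.24, edgeR adjusted p = 0.000112), and it was among the IFT genes with the highest sham level per length, at 21.0 CPM per kb of exon. Ift46 (chr9:44767908-44793447), needed for import of outer dynein arms in Chlamydomonas, was at 18.8, 17.8, 19.4 and 17.1 CPM in IRI mice and 52.5, 53.3, 69.6 and 50.2 CPM in sham mice, 3.08-fold lower (log2 fold change -1.62, SE 0.13, edgeR adjusted p = 4.82e-06). Here sham replicate 3 was the high one and the IRI mice spanned a narrow range. Ttc30b, a TPR protein of the IFT70 family, gave 6.70, 4.36, 5.86 and 6.07 CPM in IRI mice against 14.4, 16.1, 12.4 and 15.9 CPM in sham mice (log2 fold change -1.35, SE 0.16, edgeR adjusted p = 6.75e-05). Reads that align equally well to its close paralogs are left out of the gene counts as not unique, so its level is less certain.

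Ift80 and Ift27 were 2.38-fold and 2.25-fold lower. Ift27 is the small GTPase through which IFT-B handles the BBSome, and Ift80 is a gene of Jeune syndrome. Ift20, which also works at the Golgi, Ift74, which binds tubulin together with Ift81, Traf3ip1, Ift52 and Ift88 fell by 1.29-fold to 1.57-fold. Ift88, the gene of the Oak Ridge polycystic kidney mouse, was at 16.8 ± 0.870 CPM in IRI mice and 21.6 ± 1.31 CPM in sham mice (log2 fold change -0.36, SE 0.09, edgeR adjusted p = 0.00453). The call for Ift88 was lost without any one of IRI replicates 2 and 3 and sham replicates 1, 2 and 4 (edgeR adjusted p up to 0.015). The call for Ift52 was lost without any one of these mice or IRI replicate 4 (edgeR adjusted p up to 0.0167). Ift57, a subunit that also binds huntingtin-interacting protein, read 30.8, 25.3, 24.6 and 28.3 CPM in IRI mice and 27.9, 27.2, 27.7 and 30.3 CPM in sham mice (log2 fold change -0.05, SE 0.09, edgeR adjusted p = 0.645). Ift22, a small GTPase-like subunit, read 16.03, 13.9, 11.3 and 16.7 CPM in IRI mice and 12.7, 14.4, 11.6 and 13.97 CPM in sham mice (log2 fold change 0.14, SE 0.14, edgeR adjusted p = 0.410). The groups overlapped for both, and Ift81 was not called either (log2 fold change -0.32, SE 0.12, edgeR adjusted p = 0.0362). The median was -0.51 for the 8 genes of IFT-B1, the core of the complex, and -0.65 for the 5 of IFT-B2, its periphery.

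**Figure D2:**
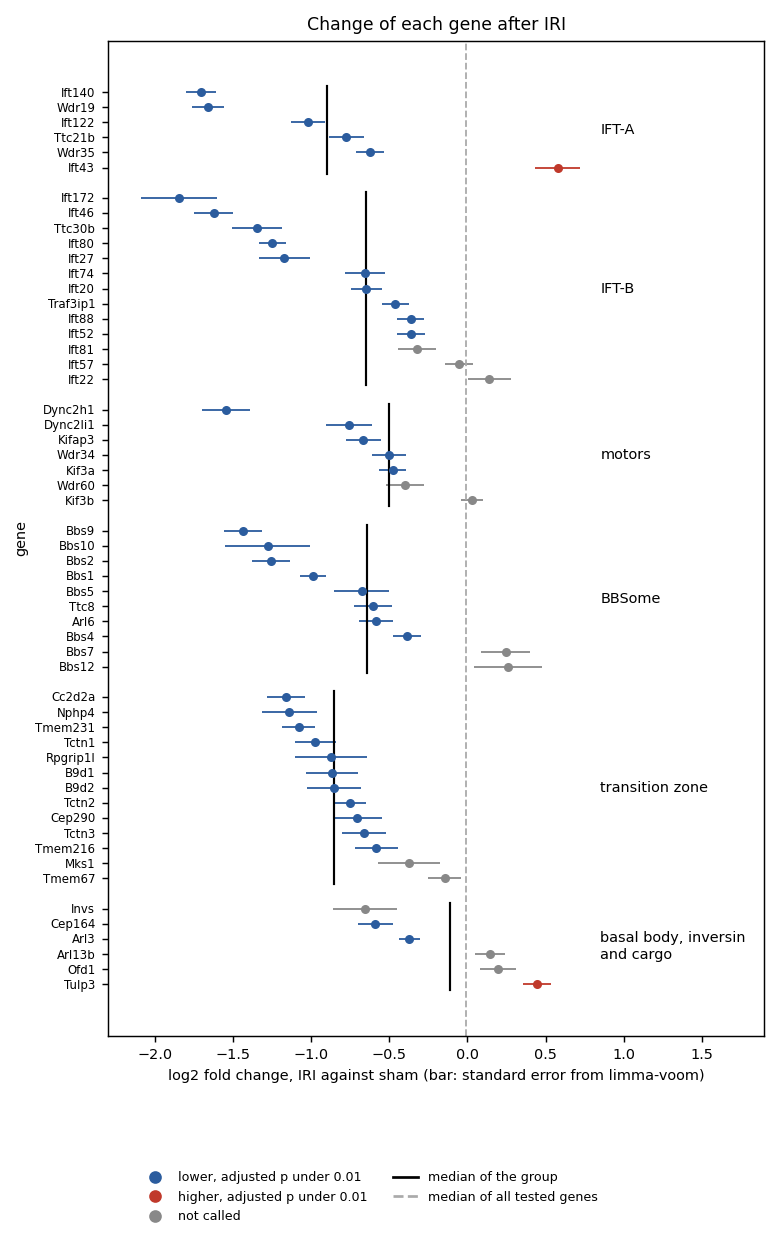
Points are log2 fold changes of the 55 genes by edgeR, with bars of 1 standard error from limma-voom, blue for called lower, red for called higher and grey for not called, and black lines are group medians. The IFT-A median lies at -0.90, the transition zone median at -0.85 and that of the basal body group at -0.11, beside -0.01 for all tested genes (dashed).

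Among the motors, 5 of 7 genes were called lower (median log2 fold change -0.50). Dync2h1 (chr9:6928503-7184446), the heavy chain of dynein-2 that drives retrograde transport, was at 47.9, 53.6, 52.0 and 50.6 CPM in IRI replicates 1 to 4 and 182, 105, 152 and 157 CPM in sham. Sham replicate 2 was the lowest of its group yet far above every IRI mouse, and the gene was 2.92-fold lower (log2 fold change -1.55, SE 0.15, edgeR adjusted p = 2.58e-05). Dync2li1, the light intermediate chain, gave 15.9, 14.1, 18.4 and 12.8 CPM in IRI mice and 26.5, 29.7, 21.0 and 26.1 CPM in sham mice (log2 fold change -0.76, SE 0.15, edgeR adjusted p = 0.00135), without overlap. The intermediate chain Wdr34 was 1.42-fold lower, a call lost without IRI replicate 3 or sham replicate 2 (edgeR adjusted p up to 0.0104). Its partner Wdr60 lay below sham in every mouse, at 12.0, 9.35, 10.2 and 12.5 CPM against 14.97, 15.3, 12.8 and 15.3 CPM, but missed the threshold (log2 fold change -0.40, SE 0.12, edgeR adjusted p = 0.0187). DESeq2 called Wdr60 lower (adjusted p = 0.0082), as did edgeR with scaling by total counts (adjusted p = 0.00201) or upper quartile (adjusted p = 0.0052).

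The heterotrimeric kinesin-2 moved unevenly. Kifap3, the accessory subunit that links the motor to cargo, stood at 43.0, 40.8, 39.2 and 43.4 CPM in IRI mice and 65.8, 76.2, 53.5 and 68.9 CPM in sham mice (log2 fold change -0.67, SE 0.11, edgeR adjusted p = 0.000477). Kif3a, a motor subunit whose loss in tubules gives cystic kidneys, was 1.39-fold lower (21.2 ± 2.03 CPM against 29.6 ± 1.36 CPM, log2 fold change -0.48, SE 0.09, edgeR adjusted p = 0.00129). Kif3b, the other motor subunit, read 89.1, 99.9, 91.0 and 105 CPM in IRI mice and 94.9, 94.9, 93.3 and 94.2 CPM in sham mice, with overlapping groups (log2 fold change 0.03, SE 0.07, edgeR adjusted p = 0.721). Its sign turned with scaling by total counts (log2 fold change -0.16) and with upper quartile factors (-0.09).

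**Figure D3:**
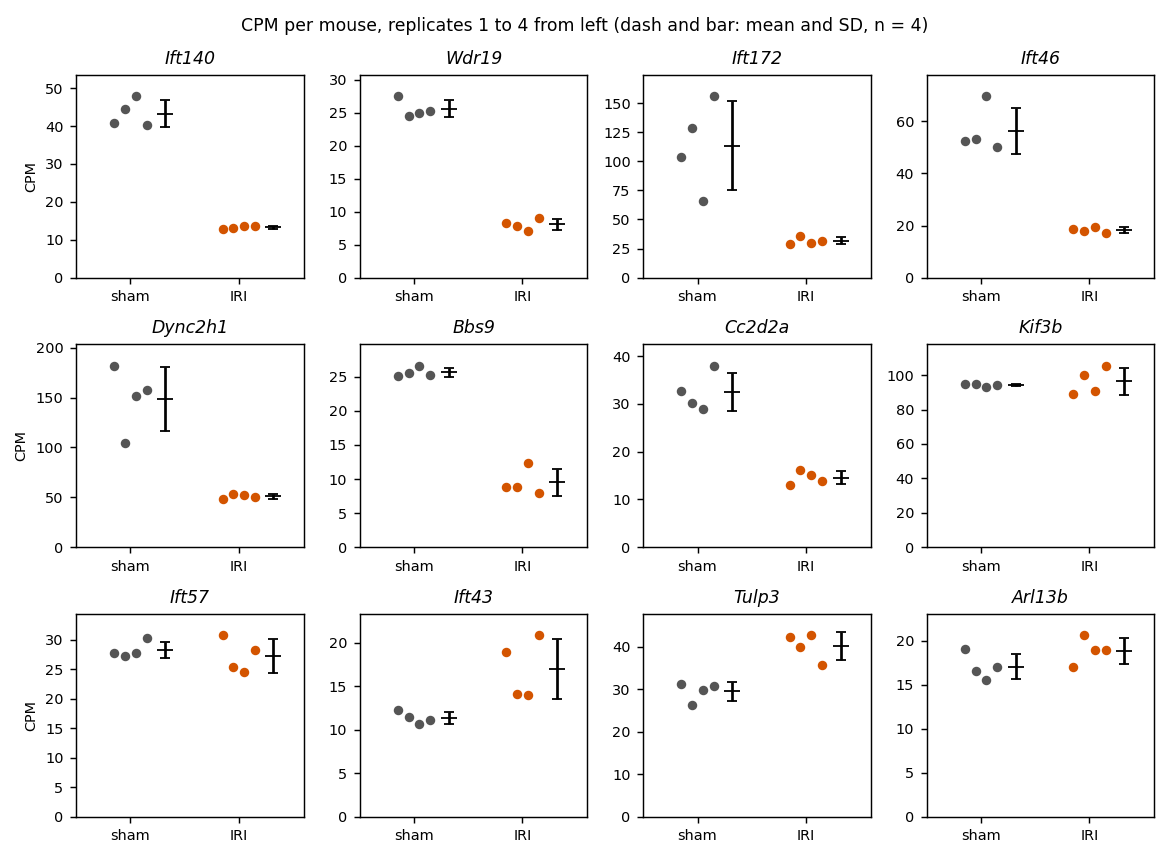
Each panel shows CPM in the 4 sham mice (grey) and 4 IRI mice (orange), with a dash and bar for mean and SD. The first 7 genes separate fully, Ift43 and Tulp3 separate in the other direction, and Kif3b, Ift57 and Arl13b overlap.

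The BBSome is an octameric coat that moves receptors out of the cilium, and its group here holds 7 subunits, the chaperonin-like Bbs10 and Bbs12 that assemble it, and the GTPase Arl6 that recruits it to membranes. Of the 10 genes 8 were called lower (median log2 fold change -0.64). Bbs9 (chr9:22475715-22888280), a central scaffold subunit, was at 8.86, 8.80, 12.3 and 8.01 CPM in IRI mice and 25.1, 25.6, 26.6 and 25.3 CPM in sham mice, 2.70-fold lower (log2 fold change -1.43, SE 0.12, edgeR adjusted p = 2.16e-05). IRI replicate 3 was the highest of the injured mice and lay far below sham. Bbs2, which pairs with Bbs7 and Bbs9 in the core, gave 9.64, 8.96, 11.03 and 8.30 CPM in IRI mice against 23.9, 23.5, 19.8 and 23.4 CPM in sham mice (log2 fold change -1.26, SE 0.12, edgeR adjusted p = 1.93e-05). Bbs10 was low in all libraries, with 2.35, 1.01, 2.18 and 1.85 CPM in IRI mice and 3.62, 4.99, 3.90 and 5.69 CPM in sham mice (log2 fold change -1.28, SE 0.27, edgeR adjusted p = 0.00258), and IRI replicate 2, at 13 counts, was the lowest.

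Bbs1, the subunit that binds Arl6, was 1.98-fold lower (log2 fold change -0.99, SE 0.08, edgeR adjusted p = 9.50e-06), and Bbs5, Ttc8, Arl6 and Bbs4 were 1.31-fold to 1.599-fold lower. The call for Bbs5 was lost without any one mouse other than sham replicate 3 (edgeR adjusted p up to 0.0175). That for Bbs4 was lost without any one of IRI replicates 2 and 3 and sham replicates 2 and 4 (edgeR adjusted p up to 0.0144). Bbs7 read 7.52, 8.02, 10.5 and 7.30 CPM in IRI mice and 7.32, 5.84, 6.68 and 8.21 CPM in sham mice (log2 fold change 0.25, SE 0.16, edgeR adjusted p = 0.214). Bbs12 read 3.41, 3.66, 2.55 and 3.08 CPM in IRI mice and 1.98, 3.08, 2.22 and 3.33 CPM in sham mice (log2 fold change 0.26, SE 0.22, edgeR adjusted p = 0.329). Neither was called and their groups overlapped.

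At the transition zone, the gate at the base of the cilium, all 13 genes had a negative fold change and 11 were called lower (median log2 fold change -0.85). The spread between its genes was narrow, from -1.16 to -0.15. Cc2d2a (chr5:43662346-43740972), a scaffold of the gate mutated in Meckel and Joubert syndromes, was at 13.0, 16.2, 15.1 and 13.8 CPM in IRI mice and 32.6, 30.2, 29.0 and 38.0 CPM in sham mice, 2.23-fold lower (log2 fold change -1.16, SE 0.12, edgeR adjusted p = 2.71e-05). Nphp4, a nephronophthisis gene, stood at 2.35, 3.27, 1.99 and 2.66 CPM in IRI mice and 5.86, 5.34, 6.27 and 5.06 CPM in sham mice (log2 fold change -1.14, SE 0.18, edgeR adjusted p = 0.000513). Tmem231, a membrane protein of the gate, gave 10.03, 7.79, 9.90 and 10.1 CPM in IRI mice against 18.7, 21.0, 20.7 and 19.9 CPM in sham mice (log2 fold change -1.08, SE 0.11, edgeR adjusted p = 3.20e-05). IRI replicate 2 was the lowest for Tmem231, and the groups of all these genes stood apart.

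The tectonics Tctn1, Tctn2 and Tctn3 were 1.96-fold, 1.68-fold and 1.58-fold lower, and the B9-domain proteins B9d1 and B9d2 1.82-fold and 1.81-fold lower. The call for Tctn3 was lost without IRI replicate 3 (edgeR adjusted p = 0.0106). Tctn1 is the only member with over 10% of its exon bases, 27.5%, shared with another gene, Hvcn1 on the other strand, and without it 40 of 54 members were lower. Rpgrip1l, an assembly factor of the gate, was 1.83-fold lower, and Cep290, the long linker protein mutated in Joubert syndrome, 1.63-fold lower at 35.2 ± 4.52 CPM against 57.5 ± 11.2 CPM (log2 fold change -0.71, SE 0.16, edgeR adjusted p = 0.00264). The call for Rpgrip1l was lost with limma-voom (adjusted p = 0.0118) and with a replicate block (edgeR adjusted p = 0.0123). Tmem216 was 1.498-fold lower and lost its call without IRI replicate 2, IRI replicate 3 or any one of the sham mice (edgeR adjusted p from 0.0107 to 0.0189). Mks1, the third B9 protein, read 5.25, 3.66, 3.49 and 5.93 CPM in IRI mice and 4.85, 6.69, 5.89 and 6.43 CPM in sham mice (log2 fold change -0.37, SE 0.20, edgeR adjusted p = 0.143). Tmem67, or meckelin, read 9.40, 10.05, 8.47 and 10.2 CPM in IRI mice and 10.9, 10.3, 11.2 and 9.76 CPM in sham mice (log2 fold change -0.15, SE 0.10, edgeR adjusted p = 0.264). Both overlapped between the groups.

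Of the 6 genes of the basal body, inversin compartment and cargo, 2 were called lower and 1 higher, with a median log2 fold change of -0.11. Those shares, 33.3% lower and 16.7% higher, stand beside 24.6% and 25.1% of all tested genes. Cep164, the distal appendage protein that docks the basal body at the membrane, was at 29.8, 35.2, 28.4 and 40.3 CPM in IRI mice and 54.2, 49.5, 49.7 and 47.8 CPM in sham mice, 1.51-fold lower (log2 fold change -0.59, SE 0.11, edgeR adjusted p = 0.00159). Arl3, the GTPase that releases lipidated cargo inside the cilium, gave 30.3, 28.0, 28.5 and 29.6 CPM in IRI mice and 37.4, 38.3, 36.8 and 38.2 CPM in sham mice (log2 fold change -0.37, SE 0.06, edgeR adjusted p = 0.000913). The fold was small, but replicates were tight and the groups did not overlap, and per length Arl3 had the highest sham level of the 55 genes, 37.1 CPM per kb of exon. Tulp3 (chr6:128321161-128355851), the adaptor that brings G-protein-coupled receptors into the cilium with IFT-A, was higher at 42.3, 40.04, 42.7 and 35.7 CPM against 31.1, 26.2, 29.9 and 30.7 CPM in sham, or 1.36-fold (log2 fold change 0.45, SE 0.09, edgeR adjusted p = 0.00191). With scaling by total counts its log2 fold change was 0.26 (edgeR adjusted p = 0.0281).

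Arl13b, the GTPase that marks the ciliary membrane and activates Arl3, read 17.0, 20.6, 18.9 and 19.0 CPM in IRI mice and 19.1, 16.6, 15.6 and 17.0 CPM in sham mice (log2 fold change 0.14, SE 0.10, edgeR adjusted p = 0.226). Ofd1, a protein of centrioles and satellites, read 19.9, 15.9, 18.1 and 20.1 CPM in IRI mice and 17.4, 17.98, 15.1 and 14.3 CPM in sham mice (log2 fold change 0.20, SE 0.11, edgeR adjusted p = 0.166). Neither was called. Invs, or inversin, which defines a compartment near the base of the shaft, was at 23.7, 19.2, 38.1 and 17.8 CPM in IRI mice and 45.9, 37.3, 34.5 and 38.2 CPM in sham mice (log2 fold change -0.66, SE 0.20, edgeR adjusted p = 0.0288). Replicate 3 was the only IRI mouse within the sham range, and without it Invs was called lower (log2 fold change -0.94, edgeR adjusted p = 0.000618).

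**Figure D4:**
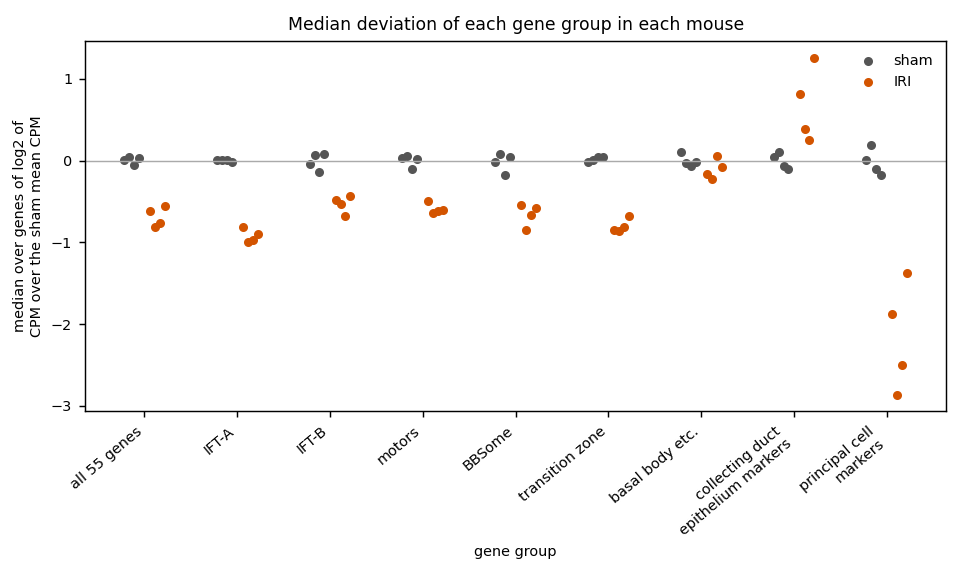
Points are single mice, and the vertical axis is the median over the genes of a group of log2 of CPM over the sham mean, with 0.1 CPM added to both. IRI mice lie below all sham mice for the 5 transport and gate groups, overlap them for the basal body group, and lie at -1.37 to -2.86 for principal cell markers and at 0.25 to 1.26 for the collecting duct epithelium list.

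By mouse, the group medians of IFT-A were -0.81 or lower on the log2 scale after IRI and those of the transition zone -0.67 to -0.86. In IFT-B, the motors and the BBSome group the IRI medians lay between -0.43 and -0.85. The basal body group reached from -0.23 to 0.06 after IRI, against -0.07 to 0.11 in sham. Principal cell markers deviated most in IRI replicate 2 (-2.86) and least in replicate 4 (-1.37), and the median of the 55 genes was lowest and highest in the same mice. Across the 55 genes, the log2 fold change had a Spearman rho of -0.30 with exon length and of -0.02 with the sham level per length, beside 0.01 with exon length over 14094 tested genes. These are descriptions across genes, which share libraries and are not replicates.

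Related ciliary genes outside the 55 were examined as well. Of 23 tested other subunits and partners of the same complexes 7 were called lower and 1 higher (median log2 fold change -0.37). Those shares, 30.4% lower and 4.35% higher, stand beside 24.6% and 25.1% of all tested genes and 74.5% and 3.64% of the 55. Tmem107, a transition zone membrane protein, was at 2.86, 2.49, 2.87 and 2.99 CPM in IRI mice and 5.60, 7.999, 9.25 and 8.69 CPM in sham mice (log2 fold change -1.49, SE 0.22, edgeR adjusted p = 0.000107), and Mkks, or Bbs6, the chaperonin partner of Bbs10 and Bbs12, was 2.50-fold lower (log2 fold change -1.32, SE 0.10, edgeR adjusted p = 6.49e-06). Cspp1, which stabilises ciliary microtubules, fell too (log2 fold change -0.75, edgeR adjusted p = 0.000173). Iqcb1, or Nphp5, was 1.46-fold higher (log2 fold change 0.54, SE 0.11, edgeR adjusted p = 0.00341), a call lost without IRI replicate 1 or 3 or any one sham mouse. With scaling by total counts 12 of the 23 were lower, and Iqcb1 had edgeR adjusted p = 0.0267.

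Centriole appendage and satellite genes had 7 of 16 lower, or 12 with scaling by total counts, and 1 higher (median -0.33). In the main fit these are 43.8% and 6.25%, beside 24.6% and 25.1% of all tested genes. Ninl, a ninein-like centrosomal protein, was at 28.1, 35.9, 28.1 and 42.2 CPM in IRI mice and 206, 232, 169.6 and 222 CPM in sham mice, 6.18-fold lower (log2 fold change -2.63, SE 0.15, edgeR adjusted p = 2.34e-06). Cep97 and Ccp110 together cap the mother centriole and hold back ciliogenesis, and Cep97 was 3.67-fold lower (log2 fold change -1.88, SE 0.09, edgeR adjusted p = 9.18e-07) while Ccp110 had a log2 fold change of -0.45 (edgeR adjusted p = 0.00764). The call for Ccp110 was lost with the series as a covariate (edgeR adjusted p = 0.0304) and with a replicate block (edgeR adjusted p = 0.0216). Cby1, which helps ciliary vesicles fuse, was 3.42-fold lower (log2 fold change -1.77, SE 0.11, edgeR adjusted p = 1.80e-06). Cep83, the appendage protein at the root of the distal appendages, rose, with 29.6, 29.8, 28.8 and 34.0 CPM in IRI mice against 15.1, 14.4, 15.6 and 13.3 CPM in sham mice (log2 fold change 1.06, SE 0.09, edgeR adjusted p = 1.24e-05).

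**Figure D5:**
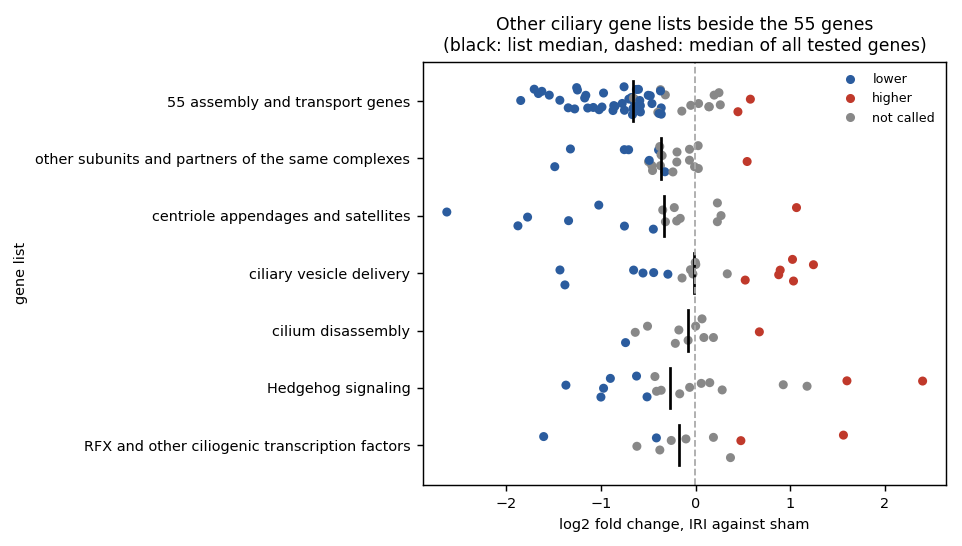
Points are log2 fold changes of tested genes, one row per list, coloured by call, with list medians in black and the median of all tested genes dashed. The 55 genes lie mostly left of 0 (median -0.66), while vesicle delivery genes are split on both sides (median -0.02).

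Vesicle delivery to the cilium was split, with 6 of 18 genes lower and 6 higher (median -0.02, or -0.06 to 0.01 without single libraries). The share was 33.3% in each direction, beside 24.6% lower and 25.1% higher of all tested genes. The lipid-cargo carriers Unc119 and Pde6d, partners of Arl3, were 2.70-fold and 2.60-fold lower (log2 fold change -1.43, SE 0.19, edgeR adjusted p = 0.000123 and log2 fold change -1.38, SE 0.14, edgeR adjusted p = 2.43e-05), and Inpp5e, the phosphatase that Arl13b brings into the cilium, had a log2 fold change of -0.66 (edgeR adjusted p = 7.52e-05). Asap1, Exoc5 and Ehd1, which act in membrane traffic in the whole cell, were 2.37-fold, 2.05-fold and 2.03-fold higher, with edgeR adjusted p of 9.28e-06, 3.06e-06 and 3.45e-06. Of 11 tested genes of cilium disassembly, where scaling by total counts gave 4 lower, only Kif24 was lower (log2 fold change -0.74, SE 0.18, edgeR adjusted p = 0.00630) and only Kif2a higher (log2 fold change 0.67, SE 0.10, edgeR adjusted p = 0.000337). Those calls are 9.09% of the list in each direction, below the shares of all tested genes. The call for Kif24 was lost without any one of IRI replicates 1, 2 and 4 and sham replicates 1, 2 and 4.

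Hedgehog signaling, which vertebrate cells run through the cilium, had 6 of 18 genes lower and 2 higher. These are 33.3% and 11.1%, beside 24.6% and 25.1% of all tested genes. The median was -0.27, or -0.09 without IRI replicate 3 and -0.13 without IRI replicate 4. The receptors and co-receptors Cdon, Ptch1 and Gas1 were lower, with Cdon at 15.8, 16.5, 15.2 and 18.6 CPM in IRI mice and 45.5, 46.0, 41.6 and 37.8 CPM in sham mice (log2 fold change -1.37, SE 0.10, edgeR adjusted p = 5.33e-06) and Ptch1 at 72.4 ± 6.85 CPM against 145 ± 6.94 CPM (adjusted p by edgeR = 1.10e-05). Gas1 had a log2 fold change of -0.97 (edgeR adjusted p = 0.00496), which missed the threshold without IRI replicate 1, sham replicate 1 or sham replicate 3. Gli3, the transcription factor processed to a repressor at the cilium, was higher, at 14.2, 21.3, 18.6 and 20.2 CPM against 4.18, 2.87, 3.61 and 3.40 CPM (log2 fold change 2.40, SE 0.19, edgeR adjusted p = 4.75e-06). Gli1, a target of the pathway, was near the limit of detection in both groups at 0.336 ± 0.160 CPM and 0.337 ± 0.208 CPM.

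Of 10 tested RFX and other ciliogenic transcription factors 2 were lower and 2 higher (median -0.18). That is 20% in each direction, below the 24.6% lower and 25.1% higher of all tested genes. Rfx3, an RFX factor that acts on ciliary genes, was at 11.01, 11.8, 12.6 and 12.2 CPM in IRI mice and 34.7, 38.5, 36.5 and 35.2 CPM in sham mice, 3.04-fold lower with no overlap (log2 fold change -1.605, SE 0.09, edgeR adjusted p = 1.19e-06). Rfx7 was lower as well (log2 fold change -0.41, edgeR adjusted p = 0.00145), and Rfx1 and Rfx2 were not called (-0.38 and -0.26, edgeR adjusted p = 0.0115 and 0.193). Rfx1 was called lower by DESeq2 (adjusted p = 0.00291) and limma-voom (adjusted p = 0.00612), and by edgeR with scaling by total counts (adjusted p = 0.00147) or upper quartile (adjusted p = 0.00287) and without IRI replicate 2 (adjusted p = 0.00463). Without that mouse 4 genes of the list were lower, and its median was -0.35, with -0.295 without IRI replicate 4 and -0.27 without sham replicate 4. Glis3, a cystic kidney gene, was higher (log2 fold change 0.48, SE 0.08, edgeR adjusted p = 0.000845), and Foxj1, the regulator of motile cilia, was called higher at 1.87 ± 0.654 CPM against 0.624 ± 0.280 CPM, a call lost without any single library but IRI replicate 4. With scaling by total counts neither was called (edgeR adjusted p = 0.0141 for Glis3 and 0.0148 for Foxj1). Genes of the motile axoneme, which the immotile primary cilium lacks, were scarce: 10 of 18 passed the filter, their sum was 13.9 to 16.4 CPM after IRI and 18.3 to 23.6 CPM in sham, and 3 were called lower and 1 higher. These calls are 30% and 10% of those tested, beside 24.6% and 25.1% of all tested genes.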

How the data were processed

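The authors prepared libraries from ribosome-bound RNA with ribosomal RNA depletion, aligned reads to mm10 with TopHat2 2.1.1, counted them per gene symbol with HTSeq and deposited the raw counts of each mouse, without normalization. DESeq2 is also among the submitters' tools. The annotation release and strand handling were not given in the sources used here. Reads of overlapping genes may therefore be assigned to either one. Lines of the count data without a gene were left out.

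From the counts of 24421 genes, edgeR 4.0.16 (R 4.3.3) with filterByExpr (minimum count 10, minimum total 15) and TMM factors tested 14606 genes by quasi-likelihood, at a Benjamini-Hochberg adjusted p of 0.01. Voom in limma 3.58.1 gave the standard errors. Alternatives were DESeq2 1.42.0, limma-voom, other scalings and filters, a replicate block, a term for the animal number series, a threshold of 0.05 and fits without each library. The biological coefficient of variation was 0.206. No 2 libraries of a group agreed within sampling noise. The fits were also run on simulated counts in which a small share of genes changed, as many up as down. That run could not test the scaling of these libraries, where many genes changed.

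The members and lists, which came from textbook knowledge, were chosen with earlier results of these data known. All 55 members are named. Values per mouse are given for up to 3 called members of each group with the largest change, those called higher and up to 2 nearest to no change, and up to 3 genes per direction are named for other lists with a mean of at least 1 CPM. Other genes were named after their values were seen, among them Invs (per mouse), Rfx1, Rfx2, Gli1 and Ccp110. Gene positions and exon lengths are from GENCODE vM21 (GRCm38, the assembly of mm10).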

Additional observations from a re-analysis of the deposited data

Results flagged for a closer look

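Among 122 groups of 4 mice, 5 held a mouse that stood far from the other 3 of its group, where chance would give about 1 in 20. Sham replicate 3 was high for Ift46, at 69.6 CPM against 50.2 to 53.3 CPM in the other sham mice. The same mouse was low for Ift88, at 19.7 CPM against 22.1 to 22.4 CPM, for Wdr60, at 12.8 CPM against 14.97 to 15.3 CPM, and for Bbs2, at 19.8 CPM against 23.4 to 23.9 CPM. IRI replicate 2 was low for Tmem231, at 7.79 CPM against 9.90 to 10.2 CPM in the other IRI mice.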

How the results depend on the processing

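The median of the 55 genes was negative in all fits. Of 510 values of the 30 genes chosen by rule for values per mouse, over 17 alternative settings, 484 kept their direction and side of the threshold; Invs, given per mouse too, gained a call in 2. The count of members called lower was 44 when scaled by total counts, 43 by upper quartile, 42 with DESeq2, 39 with limma-voom and 35 to 40 without single libraries, and the count called higher was 0 for total counts, 1 for the upper quartile, 1 when low counts were kept, 0 when the animal series was a term, and 1 to 2 without single libraries. The median log2 fold change was -0.85 with total counts and -0.77 with upper quartile factors, where all genes moved to -0.20 and -0.13, and -0.61 with the series, where the BBSome group had 5 genes lower. With total counts Ift22 (-0.053), Kif3b (-0.16) and Arl13b (-0.045) turned negative, as did Kif3b with upper quartile factors (-0.085). Without single libraries Kif3b ran from -0.013, without IRI replicate 4, to 0.065. The cause of these shifts was not tested.

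The replicate numbers do not pair the mice, since same-numbered mice deviated with correlations of -0.07, -0.53, -0.36 and -0.37. With a replicate block, 28 members were lower and 0 higher, with 3 motor, 4 BBSome and 1 basal body genes lower, and 2712 of all genes (18.6%) were lower. No IRI mouse correlated most with the sham mouse of its own number. Depth limits the genes with the fewest counts, Bbs12, Bbs10 and Bbs5.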
